A study of Mus musculus with 6 samples.

Results

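Caspases are cysteine proteases that cut proteins after aspartate, and they fall into an inflammatory branch and an apoptotic branch. The transcripts described here are those of Casp12 and its inflammatory relatives Casp1 and Casp4, and of the apoptotic caspases Casp2, Casp8, Casp9 and Casp6, 7 genes of the 19938 tested. A gene entered when a probe set carried its symbol as the only one in the platform's annotation, and each of the 7 had 1 such probe set. The members were chosen by their measured TG minus WT values on these same arrays, where Casp12 differed, so the caspase values and their intervals below are descriptions, and the count of members past a threshold restates that choice.

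Affymetrix MoGene arrays were hybridised with skeletal muscle RNA, 1 mouse per array and 6 in all, in a series titled for SOCS-3, a suppressor of cytokine signalling. Of these, 3 mice were transgenic (TG) and 3 wild type (WT). The strain, the age, the muscle taken, the gene that the transgene carries and the promoter that drives it are unknown from the labels and the design text, which limits what TG stands for. Values are log2 expression as deposited, and differences are TG minus WT. Array medians lay between 5.98 and 6.04. On every array the 12 skeletal muscle markers, among them Acta1, Ckm and Myh4, averaged 13.7 to 13.8 on the log2 scale, so the labelled tissue was matched by its markers. In bulk tissue, fewer cells of a type and less RNA per cell cannot be told apart.

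In mouse, the inflammatory caspases are made as inactive precursors that lie in the cytosol. Caspase-1 is activated on inflammasomes and matures the cytokines interleukin-1 beta and interleukin-18. The product of Casp4, known in mouse as caspase-11, senses cytosolic lipopolysaccharide and cuts gasdermin D, which opens pores in the membrane. Caspase-12 belongs to the same branch by sequence, has been linked to the endoplasmic reticulum, and has been described both as a mediator of stress-induced death and as a damper of caspase-1 activity. Apoptotic initiators are caspase-8, which is recruited to death receptors, caspase-9, which is activated on the Apaf1 apoptosome, and caspase-2, which is activated on the PIDDosome, and caspase-6 is an executioner that cuts nuclear lamin A.

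Casp1, Casp4 and Casp12 lie next to each other in that order on chromosome 9, and their start regions are shown because the TG and WT values were apart for Casp12 and overlapped for its 2 neighbours. The sequences run from 250 bases before to 50 bases after the annotated start, on the plus strand, from RefSeq on build GRCm38.p6. Capitals mark matches to 6 motifs searched on both strands: TTCNNNGAA, the palindrome that STAT factors bind, GGGANTTCC for NF-kappaB, TTTCNNTTT for interferon response factors, the TATA box TATAAA, the CCAAT box, and TGATGNAA for ATF4 with CHOP.
Casp12, chr9:5345226-5345525: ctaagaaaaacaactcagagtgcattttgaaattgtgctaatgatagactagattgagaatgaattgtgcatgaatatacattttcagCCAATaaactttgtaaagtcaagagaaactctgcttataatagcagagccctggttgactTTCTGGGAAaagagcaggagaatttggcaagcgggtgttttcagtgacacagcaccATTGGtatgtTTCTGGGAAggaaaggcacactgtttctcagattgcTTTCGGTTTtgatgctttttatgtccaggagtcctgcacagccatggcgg
Casp1, chr9:5298267-5298566: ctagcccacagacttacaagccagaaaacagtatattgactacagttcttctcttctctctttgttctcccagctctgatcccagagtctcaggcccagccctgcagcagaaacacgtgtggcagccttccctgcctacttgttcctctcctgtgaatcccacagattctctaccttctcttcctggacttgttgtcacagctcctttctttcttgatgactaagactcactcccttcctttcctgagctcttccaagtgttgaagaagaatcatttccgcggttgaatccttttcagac
Casp4, chr9:5308599-5308898: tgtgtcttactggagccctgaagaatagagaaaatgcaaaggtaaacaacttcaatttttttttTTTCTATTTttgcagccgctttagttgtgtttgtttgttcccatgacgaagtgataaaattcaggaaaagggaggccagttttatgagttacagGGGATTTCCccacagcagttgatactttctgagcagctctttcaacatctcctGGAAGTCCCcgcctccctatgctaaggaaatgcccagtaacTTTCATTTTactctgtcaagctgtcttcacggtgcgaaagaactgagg

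The Casp12 window held the STAT palindrome at 2 places, both spelled TTCTGGGAA and beginning 102 and 36 bases before the annotated start. It also held CCAAT in both orientations, beginning 162 and 46 bases before the start, the interferon response letters once, at base 1 after it, and no match to the other 3 motifs. For Casp4, 2 start windows were annotated, and only the first listed was shown and searched. That Casp4 window held the NF-kappaB letters at 2 places, beginning 92 and 39 bases before the start. It also held the interferon response letters at 2 places, and none of the other 4 motifs. The Casp1 window had 0 matches to any of the 6, and no matches overlapped. The windows of Casp2, Casp8, Casp9 and Casp6, searched for the STAT palindrome alone, had 0 matches to it. Among 32851 mouse windows of the same length, 8.30% held the STAT palindrome at least once and 0.457% at least 2 times. The share was 37.4% for CCAAT, 1.68% for the NF-kappaB letters, 10.6% for the interferon response letters, 13.6% for TATAAA and 3.97% for the ATF4 with CHOP letters. Longer forms of the NF-kappaB and interferon response motifs, of 10 letters and searched first, had 0 matches in these 3 windows, beside 1.47% and 3.44% of all windows. The longer NF-kappaB form has the same letters with a wider gap, so the Casp4 matches hold for the shorter spacing alone. These are matches of letters in a window, and no binding was measured.

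Casp12 was lower in TG muscle. Its log2 values were 6.86, 6.78 and 6.57 on the 3 TG arrays, against 7.85, 7.94 and 7.85 on the 3 WT arrays. No TG array reached the level of any WT array, and the gap between the highest TG and the lowest WT value, 0.99, was the widest of any gene tested, followed by that of Socs2 at 0.86. The TG mean was 6.74 ± 0.15 and the WT mean 7.88 ± 0.05 (SD over 3 arrays). The log2 difference was therefore -1.14 (SE 0.09, 95% interval -1.35 to -0.94), or 2.21-fold lower with an interval of 1.92 to 2.55. By size alone it was at rank 6 of all genes, counted from the largest difference in either direction, and the spread of Casp12 within groups, a log2 SD of 0.11, was close to the median of all genes, 0.112.

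**Figure D1:**
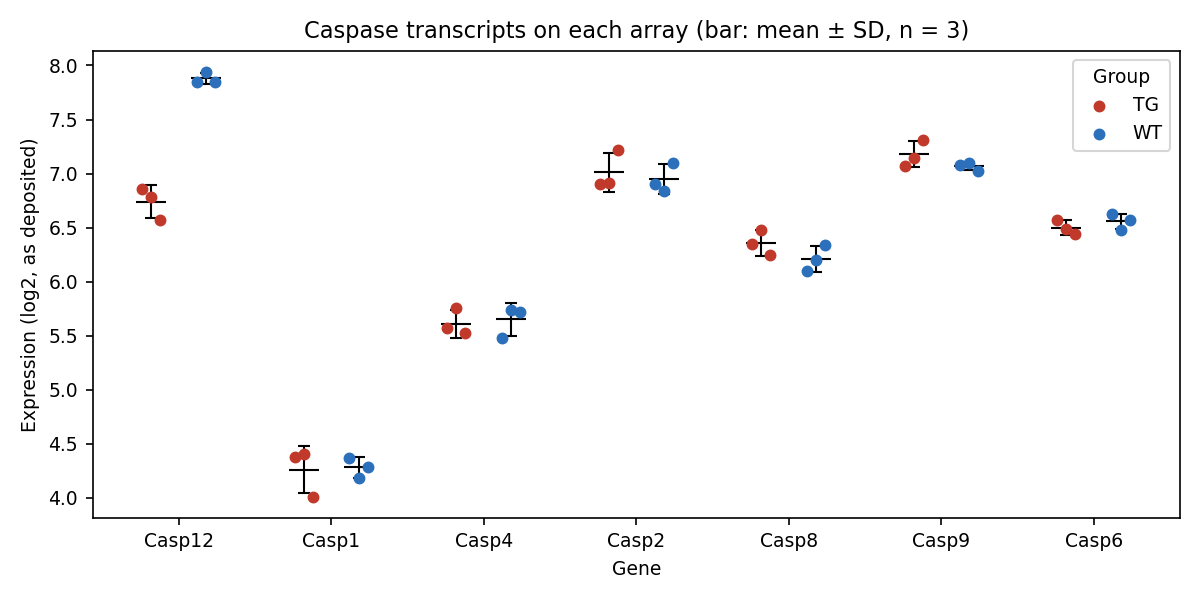
Log2 expression (vertical axis) of each of the 7 caspase transcripts (horizontal axis) on every array, with TG points left of WT points and bars at the mean ± SD of 3 arrays. The TG and WT points are apart for Casp12, with a TG mean of 6.74 and a WT mean of 7.88, and overlap for the 6 other genes.

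Casp1 and Casp4, which flank the start side of Casp12 on the chromosome, showed no such gap. Casp1 had log2 values of 4.38, 4.40 and 4.01 on the TG arrays, against 4.37, 4.18 and 4.28 on the WT arrays. TG array 3 lay below every WT array and the other two TG arrays lay above, and the difference was -0.02 (SE 0.12, 95% interval -0.29 to 0.26). Casp4 had 5.57, 5.76 and 5.52 on the TG arrays, against 5.48, 5.74 and 5.72 on the WT arrays. Its groups overlapped, with a difference of -0.03 (SE 0.10, 95% interval -0.27 to 0.20). The intervals hold changes of up to 1.23-fold lower for Casp1 and 1.20-fold lower for Casp4, both short of the lower bound of 1.92-fold for Casp12. Both genes lay below the median of every array, unlike Casp12, and signal over background could not be assessed. An unchanged transcript and one not detected therefore cannot be told apart here.

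Within each array, Casp12 was set against the mean of Casp1 and Casp4, each gene being first centred on its own mean over the 6 arrays. The log2 ratio was -0.48, -0.66 and -0.55 on the TG arrays, against 0.57, 0.62 and 0.49 on the WT arrays. The TG mean was -0.56 ± 0.09 and the WT mean 0.56 ± 0.07 (SD over 3 arrays), which differ by -1.12 (SE 0.07). Set against Casp1 alone the difference was -1.13 (SE 0.10) and against Casp4 alone -1.11 (SE 0.11), so the lower Casp12 value was as large within the family as on its own.

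The apoptotic initiators had small differences, all above 0. Casp8 had log2 values of 6.35, 6.48 and 6.25 on the TG arrays, against 6.10, 6.20 and 6.34 on the WT arrays, a difference of 0.15 (SE 0.09, 95% interval -0.07 to 0.36). On 2 of 3 TG arrays it lay above every WT array. Casp9 had 7.07, 7.14 and 7.31 on the TG arrays, against 7.08, 7.10 and 7.02 on the WT arrays, a difference of 0.11 (SE 0.08, 95% interval -0.08 to 0.30). Here too 2 of 3 TG arrays lay above every WT array. Casp2 had 6.90, 6.91 and 7.22 on the TG arrays, against 6.90, 6.84 and 7.10 on the WT arrays, a difference of 0.06 (SE 0.11, 95% interval -0.21 to 0.32). The executioner Casp6 had 6.57, 6.49 and 6.44 on the TG arrays, against 6.63, 6.48 and 6.57 on the WT arrays, a difference of -0.06 (SE 0.07, 95% interval -0.23 to 0.11). All 4 overlapped between the groups, and the largest change that any of their intervals holds is 1.28-fold higher, for Casp8.

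Set against the mean of these 4 apoptotic caspases, Casp12 was lower in TG by a log2 difference of -1.21 (SE 0.12). The 6 members other than Casp12 had 3 differences above 0 and 3 below, with a median of 0.021, beside a median of -0.016 over all genes tested. As part of that choice, 1 of the 7 members passed an adjusted p of 0.05 in limma's fit over all genes, namely Casp12, where 0.00502% of all genes passed, and 1 had groups that did not overlap, where 12.3% of all genes did not (7.76% lower and 4.52% higher in TG). Both counts rest on the contrast that chose the members. No member passed when any 1 of the 6 arrays was left out, while the Casp12 difference lay between -1.20 without TG array 1 and -1.06 without TG array 3. Casp14, an epidermal caspase that was measured but is no member, had a difference of -0.12 (SE 0.12).

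**Figure D2:**
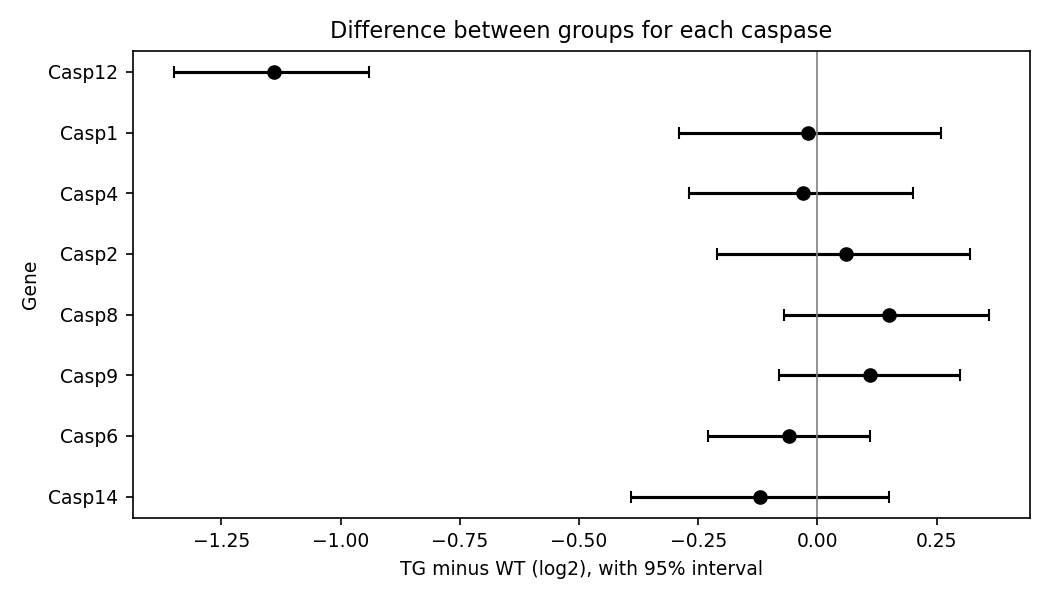
TG minus WT difference on the log2 scale (horizontal axis) with its 95% interval for each of the 7 caspases and for Casp14 (vertical axis). The interval of Casp12, -1.35 to -0.94, lies apart from the 7 others, all of which include 0.

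Members varied differently within the groups. Casp6 had the smallest log2 SD within groups, 0.07, and Casp1 the largest, 0.17. TG array 3 held the lowest value over all 6 arrays for Casp12, Casp1 and Casp6 and the highest for Casp2 and Casp9. Casp12 lay 0.16 below the mean of its group on that array, Casp1 0.26 below, Casp2 0.21 above and Casp9 0.14 above. Without TG array 3, Casp1 and Casp8 were higher on both remaining TG arrays than on every WT array. For Casp1 the margin was narrow, 4.38 on TG array 1 against 4.37 on WT array 1. In that setting 25.1% of all genes did not overlap in either direction, so these 2 are described only.

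The genes on either side of Casp12 were compared next. Of the 5 tested genes before and the 5 after it in gene order, 3 had differences below 0 and 7 above, with a median of 0.04. Over all genes tested, 56.2% were below 0. Of these 10, which include Casp1 and Casp4, 0 had groups that did not overlap, beside 12.3% of all genes, so 0 of 10 is little below that share. On the side of Casp4 and Casp1 the next genes were the glutamate receptor gene Gria4 at 0.04 (SE 0.10), Msantd4 at 0.05 (SE 0.08) and Kbtbd3 at -0.05 (SE 0.10). On the other side, Pdgfd, which encodes a platelet-derived growth factor, was at 0.01 (SE 0.13), Ddi1 at 0.12 (SE 0.08), the dynein heavy chain gene Dync2h1 at 0.10 (SE 0.11) and Dcun1d5 at 0.08 (SE 0.07). The collagenase gene Mmp13 had the widest interval, -0.48 to 2.04, with 8.58, 6.99 and 6.38 on the TG arrays, against 6.97, 5.89 and 6.74 on the WT arrays. No neighbour had a value near that of Casp12 on the lower side.

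**Figure D3:**
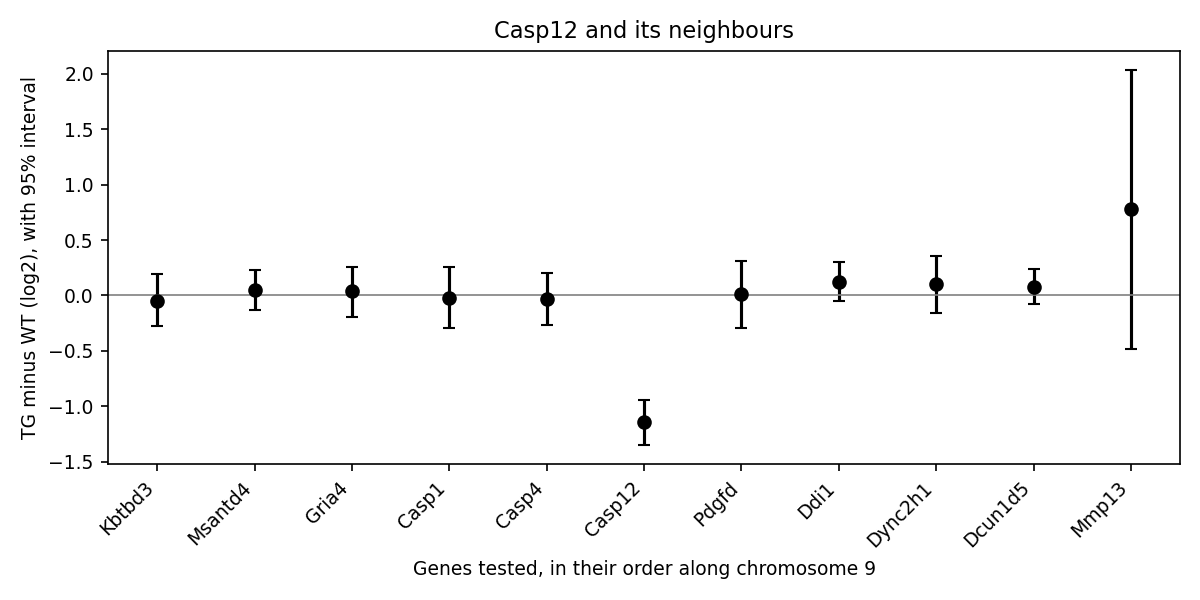
TG minus WT difference on the log2 scale with its 95% interval (vertical axis) for Casp12 and the 5 tested genes on either side, in gene order along chromosome 9 (horizontal axis, equal steps). Casp12 at -1.14 is the only gene of the 11 whose interval lies wholly below 0.

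The genes whose profile over the 6 arrays was nearest to that of Casp12 were found by the root mean square distance between log2 values centred on each gene's mean. The nearest was Socs2, which restrains growth hormone signalling, at a distance of 0.199, with 6.88, 6.88 and 6.63 on the TG arrays, against 8.30, 7.74 and 7.79 on the WT arrays. Its value moves with the probe set, since the difference was -1.15 for the brighter one and -0.77 for the mean of its probe sets. Next came the serine protease gene Htra4 at 0.219, Gm4871 at 0.243, the phosphatase gene Dusp1 at 0.263 and the odorant receptor gene Olfr172 at 0.272. All were lower in TG, as nearness to the Casp12 profile requires. The differences were -0.81 for Htra4, -0.74 for Gm4871, -0.81 for Dusp1 and -0.71 for Olfr172, and the distance of the median gene was 0.582. Casp1 and Casp4 stood at 0.573 and 0.567, close to that median gene. A gene with no change over the arrays would stand at 0.579, the root mean square of Casp12 itself. Distances near that value therefore do not measure likeness to Casp12. The STAT palindrome had 0 matches in the windows of Gm4871, Dusp1 and Olfr172, the 3 that were searched of the 5 nearest genes. Socs2 and Htra4, the nearest of all, had no window among those available and were not searched.

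**Figure D4:**
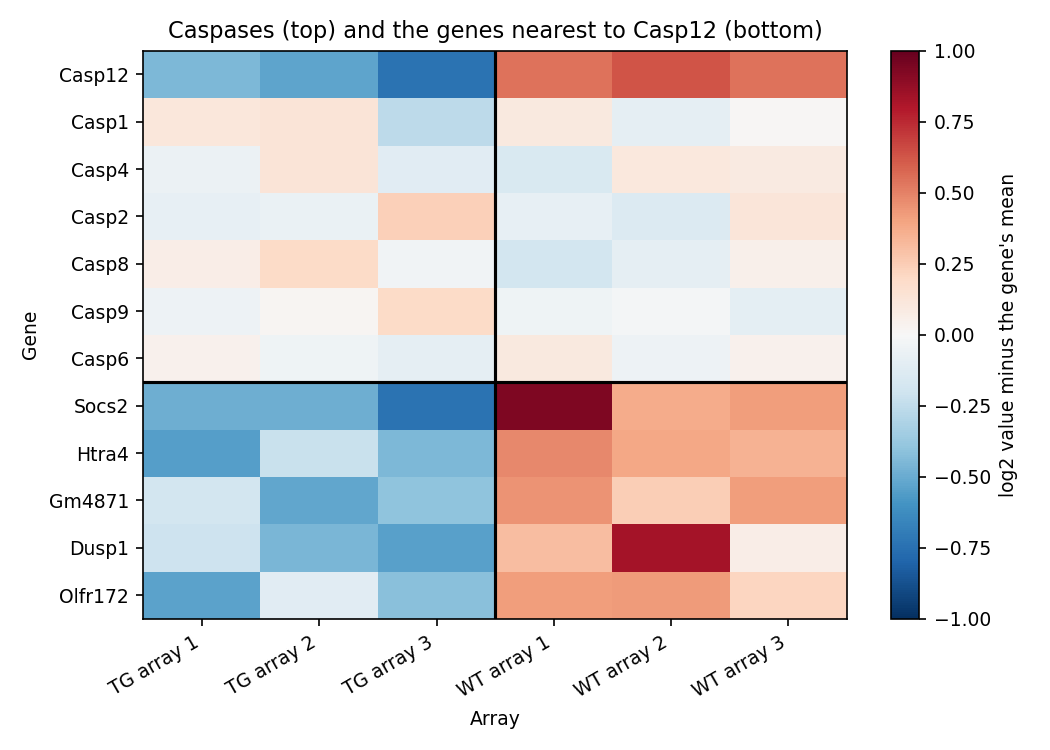
Log2 value minus the gene's mean (colour, -1 to 1) on the TG and WT arrays (columns) for the 7 caspases (upper rows) and the 5 genes nearest to Casp12 (lower rows). Casp12 and the lower rows are below their mean on all TG arrays and above it on all WT arrays, and the 6 other caspases are near 0.

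Genes that act upstream or downstream of caspases were followed in 9 lists with 110 genes, 100 of them measured. None passed an adjusted p of 0.05 in limma's fit in either direction, beside 0.00502% of all genes. At an unadjusted p under 0.05 there were 4 higher and 4 lower, or 4 of 100 each, beside 1.96% of all genes higher and 4.79% lower. The 100 genes had 43 differences above 0 and 57 below, and over all genes tested 56.2% were below 0.

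Among the platforms and adaptors, 6 of 12 genes were above 0 and the median difference was 0.003. Apaf1, the scaffold on which caspase-9 is activated, had 7.54, 7.43 and 7.21 on the TG arrays, against 6.47, 6.53 and 6.17 on the WT arrays, a difference of 1.01 (SE 0.12), the largest above 0 of any gene tested. It did not pass in the fit of all genes, but it did when the variance model followed intensity. Casp9, which acts on that scaffold, stood at 0.11. Cflar, the inhibitory relative of caspase-8, was at 0.15 (SE 0.08), or 0.03 as the mean of its probe sets, the protease gene Htra2 at 0.15 (SE 0.08) and Casp8ap2, which binds caspase-8, at 0.22 (SE 0.12). Death receptors and their ligands had 5 of 9 differences below 0, the median being -0.102, which became -0.04 without TG array 1, -0.03 without WT array 2 and 0.08 when only genes above the median level entered. They included the TRAIL ligand gene Tnfsf10 at -0.26 (SE 0.12) and its receptor gene Tnfrsf10b at -0.21 (SE 0.10).

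The BCL2 family, which sets the release of cytochrome c from mitochondria, had 9 of 14 differences below 0, the median being -0.038. Its lowest p-values were those of the BH3-only genes Bik at -0.23 (SE 0.11) and Hrk at -0.18 (SE 0.11). Inhibitors of apoptosis had 5 of 7 differences above 0, the median being 0.038, and -0.01 without WT array 2 or WT array 3. Birc2, a ubiquitin ligase of that family, had 8.17, 8.16 and 8.14 on the TG arrays, against 8.05, 7.88 and 7.88 on the WT arrays. Its difference was 0.22 (SE 0.07), or 0.16 as the mean of its probe sets. Xiap, the direct inhibitor of several caspases, was at 0.07 (SE 0.08). Substrates cut during apoptosis had 7 of 13 differences below 0, the median being -0.014, with the actin-severing gene Gsn at 0.16 (SE 0.07) and the kinase gene Rock1 at 0.11 (SE 0.07).

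No partner of the inflammatory branch passed. Inflammasome sensors, adaptor and substrates had 10 of 13 differences below 0, where 56.2% of all genes were, and the median was -0.095. Among genes above the median level, where fewer of its members enter, the median was 0.09. Pycard, the adaptor that recruits caspase-1, had 5.67, 5.50 and 5.66 on the TG arrays, against 5.84, 5.68 and 5.71 on the WT arrays, with a difference of -0.13 (SE 0.08), Il1a was at -0.22 (SE 0.12) and Txnip at 0.20 (SE 0.10). Inducers of Casp4 and guanylate-binding proteins, which act on bacterial lipopolysaccharide, had 9 of 11 differences below 0, the median being -0.089, with 3 lower and 1 higher at an unadjusted p under 0.05. Gbp7 had 7.21, 7.28 and 7.16 on the TG arrays, against 7.72, 7.53 and 7.50 on the WT arrays, a difference of -0.37 (SE 0.08), Gbp3 was at -0.38 (SE 0.16) and the lipopolysaccharide receptor gene Tlr4 at 0.31 (SE 0.13).

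Endoplasmic reticulum stress genes and calpains, listed because caspase-12 has been tied to that stress and to cleavage by calpain in mouse, had 12 of 20 differences above 0, the median being 0.011. The cochaperone gene Dnajb9 was at 0.25 (SE 0.09). The stress-induced genes Trib3 and Ddit3, which encodes CHOP, were at -0.21 (SE 0.08) and -0.21 (SE 0.11). The disulfide isomerase gene Pdia4 was at 0.22 (SE 0.13), or 0.15 as the mean of its probe sets. Members of this list thus stood on both sides of 0, and none was as far from it as Casp12.

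**Figure D5:**
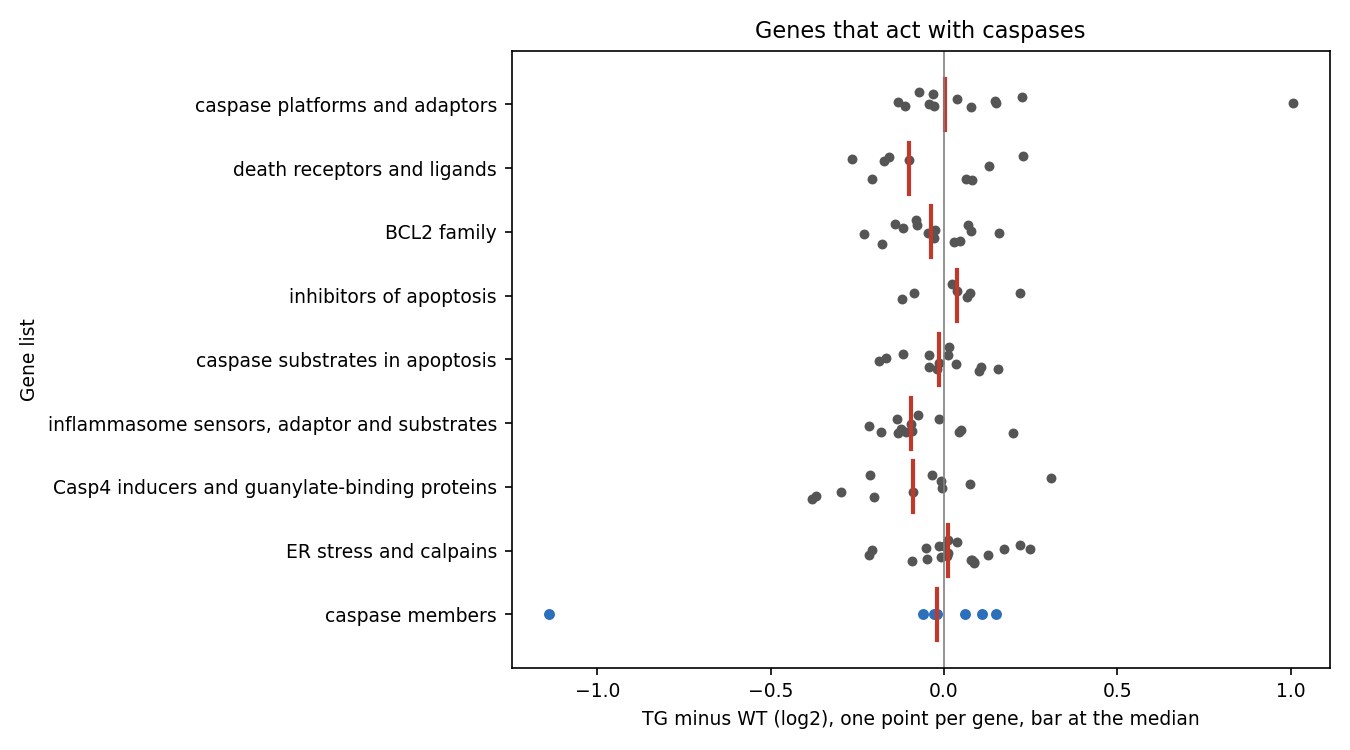
TG minus WT difference on the log2 scale (horizontal axis) for each measured gene of 8 lists and for the 7 caspases (vertical axis), with a bar at the median of each row. Apaf1 at 1.01 and Casp12 at -1.14 stand apart from the rest, which lie between -0.38 and 0.31.

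Macrophages carry inflammatory caspases, and their 15 markers had 12 differences above 0, with mean log2 levels of 6.67 to 6.90 on the TG arrays and 6.50 to 6.81 on the WT arrays, and the weakest of them averaged 5.12. The median difference of these 15 was 0.102, and 3 were below 0, the lowest being C1qa at -0.095 (SE 0.147). Itgam at 0.57 (SE 0.10), Ccr2 at 0.56 (SE 0.20) and Cd68 at 0.51 (SE 0.26) were the farthest above 0. Adgre1 at 0.06 (SE 0.11), Csf1r at 0.05 (SE 0.09) and Cd14 at 0.01 (SE 0.09) were near it. In limma's fit, 3 of the markers, Itgam, Ccr2 and Tyrobp, were higher at an unadjusted p under 0.05, beside 1.96% of all genes. The 10 measured bone and osteoclast markers had 8 differences above 0 and a median of 0.202, among them Acp5 at 0.69 (SE 0.21), Ibsp at 0.68 (SE 0.35) and Ctsk at 0.57 (SE 0.18). Alpl at 0.027 (SE 0.125) and Dmp1 at 0.007 (SE 0.087) were near 0. Below it were Sp7 at -0.053 (SE 0.146) and Sost at -0.045 (SE 0.099). Mean levels of the 10 markers were 6.51, 6.08 and 5.83 on the TG arrays, against 5.87, 5.68 and 5.95 on the WT arrays, highest on TG array 1. The 8 measured adipocyte markers had 7 above 0 and a median of 0.161. Their mean levels, 6.93 to 7.09 in TG and 6.77 to 6.86 in WT, did not overlap, beside 12.3% of single genes. Adipoq at 0.636 (SE 0.093) was the farthest above 0. Fabp4 at 0.091 (SE 0.079) and Lipe at 0.059 (SE 0.072) were near it, and Pparg at -0.032 (SE 0.085) was below. The 8 measured lymphocyte markers had 5 below 0, at 4.83 to 4.99 in TG and 4.99 to 5.07 in WT. Hepatocyte markers varied most from array to array, with means of 6.56, 7.82 and 5.67 on the TG arrays, against 6.89, 7.41 and 7.51 on the WT arrays, and all 11 measured had differences below 0. The part of these cell types in the Casp12 difference was not tested.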

How the data were processed

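Frozen skeletal muscle was homogenized in Trizol and its total RNA cleaned on RNeasy columns before biotin labelling, per the labels' protocols. The authors deposited 1 table of log2 values for 35557 probe sets on 6 arrays. The scale was read from the values, and how they were summarized and normalized is not given in the sources used. Signal over background could not be assessed. Symbols came from the platform's annotation (21789 probe sets with 1 symbol, 1621 with several and 12147 with none). Each gene was represented by its probe set with the highest mean.

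Groups of 3 TG and 3 WT arrays were compared with limma 3.58.1 in R 4.3.3 (lmFit and eBayes, two-sided, Benjamini-Hochberg over 19938 genes, threshold 0.05), and tested on simulated data. Figures used matplotlib 3.10.9. The members, lists and motifs were chosen with earlier results of these data known. Genes were named by a rule: all members, Casp14, up to 4 genes of smallest p per list, 5 neighbours on either side of Casp12, and the nearest profiles (5 for Casp12, 3 for Casp1 and Casp4). Alternatives were other variance models, array weights, a level filter, other probe set rules, other scaling and each array left out.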

Additional observations from a re-analysis of the deposited data

How the results depend on the processing

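Over 14 alternatives the Casp12 difference lay between -1.20 and -1.06, and against the mean of Casp1 and Casp4 it kept its sign. The number of genes called, 1 in the reported fit, was 7 with an intensity trend, 2 among genes above the median level, 0 with robust moderation, 0 with a common array median, and 0 with each array left out in turn, where fewer arrays enter. Members called were 0 in the last 3 of these settings. The cause was not tested. Members whose groups did not overlap numbered 2 with a common median, where Casp9 joined, beside 12.3% of all genes, and 1 to 3 without each array, where 20.6% to 25.1% of all genes did not overlap. Among genes above the median level the list medians of death receptors and of inflammasome genes turned from below 0 to 0.08 and 0.09. That of inhibitors of apoptosis turned to -0.01 without WT array 2 or WT array 3, and that of apoptotic substrates to 0.02 without TG array 3, and it was also above 0 with a common median. Of the 100 pathway genes, 1 (Apaf1) was called with an intensity trend. Rounded to 2 decimals, the Casp1, Casp4 and Casp2 differences turned to 0 or to the other sign in 4, 4 and 2 alternatives. The signs of the Casp8, Casp9 and Casp6 differences did not change. Casp1, Casp4 and Casp8 were below the median level and were not in that filtered fit. No paired analysis was possible because the labels give no replicate numbers.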

Other observations

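The profiles of Casp1 and Casp4 were shared closely by other genes. Nearest to Casp1 were Nbea at a root mean square distance of 0.028, 8030451A03Rik at 0.029 and Aimp2 at 0.034, and nearest to Casp4 were Steap1 at 0.018, Olfm5 at 0.023 and Eln, the elastin gene, at 0.027. Casp1 and Casp4 were 0.166 apart from each other, while the median gene lay 0.179 from Casp1 and 0.153 from Casp4. The root mean square of the profile itself was 0.141 for Casp1 and 0.114 for Casp4, beside 0.579 for Casp12. Within groups, though, the log2 SD of Casp1, 0.17, exceeded that of 78.3% of genes, and that of Casp4, 0.14, that of 64.0%. Why near matches exist was not tested.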
